A study of Mus musculus with 20 samples.

Results

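Circadian clock genes were followed as 10 members, chosen by gene name on the array: Arntl and Clock, the transcriptional activators; Per1, Per2, Per3, Cry1 and Cry2, the repressors; Nr1d1, the receptor of the second loop; and Dbp and Tef, output factors of the PAR bZIP family. They make up 10 of 27827 gene names and 21 of 41174 probes of an Agilent whole mouse genome array. Total RNA of whole kidneys from young adult male C57BL/6 mice was labelled with Cy3 and hybridised to 20 arrays, 4 in each of 5 groups. No surgery and no treatment are recorded for the Control mice in the sources used here. IRI mice had both renal pedicles clamped for 45 min under ketamine and xylazine, followed by 6 h of reperfusion. IRI+Hemin mice received 25 mg/kg of Hemin, an inducer of heme oxygenase 1, by the intraperitoneal route 24 h before the same surgery. IPC+IRI mice went through ischemic preconditioning, a 15 min clamping of both pedicles, 7 days before the same 45 min of ischemia and 6 h of reperfusion. Hemin mice received 25 mg/kg of the drug and had no surgery. No group is labelled as sham-operated, so the effects of ischemia, of surgery and of anaesthesia cannot be told apart. The hour of the day at which kidneys were collected and the light schedule are not given in the sources used here, and neither is the interval from Hemin to collection in the mice without surgery.

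The molecular clock of mammalian cells is a transcriptional feedback loop with a period of about a day. The proteins ARNTL (BMAL1) and CLOCK bind together to E-boxes and switch on the Per and Cry genes, whose products return to the nucleus and block them, while NR1D1 (REV-ERBα) and the ROR receptors act in opposite directions on ROR elements, among them those of Arntl. DBP and TEF activate D-box genes and NFIL3 represses them. In the kidney, clock genes take part in the daily rhythm of blood flow, filtration and tubular transport. Per1 is also a known early target of CREB and of the glucocorticoid receptor.

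The regulatory letters named above can be read in the sequence just around the start of several members. Windows of 250 bases before to 50 bases after the annotated start were available for 9 of the 10 members, 14 windows in all (RefSeq, GRCm38.p6). They were searched on both strands for the E-box (CACGTG), the E'-box (CACGTT), the D-box (TTATGTAA or TTACGTAA), the ROR element (TAGGTCA or TGGGTCA) and the cAMP response element (TGACGTCA). Of all 32851 windows of the table, 7.15% hold an E-box, 4.68% an E'-box, 1.06% a D-box, 6.45% a ROR element and 1.79% a cAMP response element. The windows of Per1, Cry1, Per3 and Arntl are printed because these members stand for the E-box, D-box and ROR branches. Capitals mark the matches, none of which overlap each other, and a match is a run of letters, not a binding site shown in these kidneys. The windows are chr11:69098699-69098998 (+ strand) for Per1, chr10:85185005-85185304 (- strand) for Cry1, chr4:151044616-151044915 (- strand) for Per3 and chr7:113207261-113207560 (+ strand) for Arntl.
Per1: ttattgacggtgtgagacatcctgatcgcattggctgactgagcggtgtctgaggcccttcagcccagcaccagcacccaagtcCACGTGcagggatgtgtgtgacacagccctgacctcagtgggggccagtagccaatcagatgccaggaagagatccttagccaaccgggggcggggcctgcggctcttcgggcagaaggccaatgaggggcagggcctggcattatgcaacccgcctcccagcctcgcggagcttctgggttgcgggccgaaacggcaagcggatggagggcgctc
Cry1: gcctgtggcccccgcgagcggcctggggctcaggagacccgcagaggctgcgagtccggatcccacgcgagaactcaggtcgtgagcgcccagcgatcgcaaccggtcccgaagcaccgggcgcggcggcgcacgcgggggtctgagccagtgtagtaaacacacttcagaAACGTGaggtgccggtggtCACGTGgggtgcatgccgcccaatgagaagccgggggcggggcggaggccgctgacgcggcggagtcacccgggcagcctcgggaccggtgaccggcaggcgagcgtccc
Per3: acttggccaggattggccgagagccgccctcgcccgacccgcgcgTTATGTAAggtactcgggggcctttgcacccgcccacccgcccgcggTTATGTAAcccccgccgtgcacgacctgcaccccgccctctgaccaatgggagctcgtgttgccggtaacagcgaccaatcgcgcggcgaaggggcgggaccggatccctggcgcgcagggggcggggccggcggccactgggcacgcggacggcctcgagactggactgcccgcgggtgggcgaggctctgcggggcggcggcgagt
Arntl: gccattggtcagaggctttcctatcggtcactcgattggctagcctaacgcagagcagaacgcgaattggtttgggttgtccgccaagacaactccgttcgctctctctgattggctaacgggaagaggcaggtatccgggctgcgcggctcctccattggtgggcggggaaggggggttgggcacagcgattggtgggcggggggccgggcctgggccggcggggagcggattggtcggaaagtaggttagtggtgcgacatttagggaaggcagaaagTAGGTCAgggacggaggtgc
The E-box of Per1 begins 166 bases before the start. Cry1 carries an E-box 60 bases and an E'-box (AACGTG on the strand shown) 79 bases before it. The D-boxes of Per3 begin 205 and 158 bases before its start, and the ROR element of Arntl lies at base 31 after it. Among the windows not printed, both of Tef hold an E-box, and those of Cry2 and Nr1d1 an E'-box. The windows of Dbp and Clock, the second window of Per1 and the first of Arntl hold none of these letters. No member window holds a cAMP response element.

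Log2 expression is the log2 of a gene's processed intensity, averaged over its probes, relative to the 75th percentile of the array, so that 0 marks that percentile and a difference of 1 is a doubling. The 4 arrays of a group shared 1 scan time that no other group had, and are taken here to share 1 slide. This leaves slide and group inseparable. The slides of Control and IRI shared a scan day, those of IPC+IRI and Hemin shared another, and the slide of IRI+Hemin was scanned apart from both. The 75th percentile was between 147 and 358 intensity units, between 57.4% and 67.4% of genes were above background, and each array correlated with the other arrays of its group at 0.979 or more. No member spot was flagged or saturated. Of the members, 8 were above background on all 20 arrays. The exceptions were Cry1, above background on 1 of 4 Control and on 0 of 4 Hemin arrays, and Per3, above it on 2 of 4 IRI and on 2 of 4 IRI+Hemin arrays. For both genes, 3 of 4 IPC+IRI arrays were above background. All 5 proximal tubule markers and all 5 markers of the thick limb and distal tubule were above background on all 20 arrays. In whole kidney RNA, fewer cells of a type and less RNA per cell cannot be told apart.

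**Figure D1:**
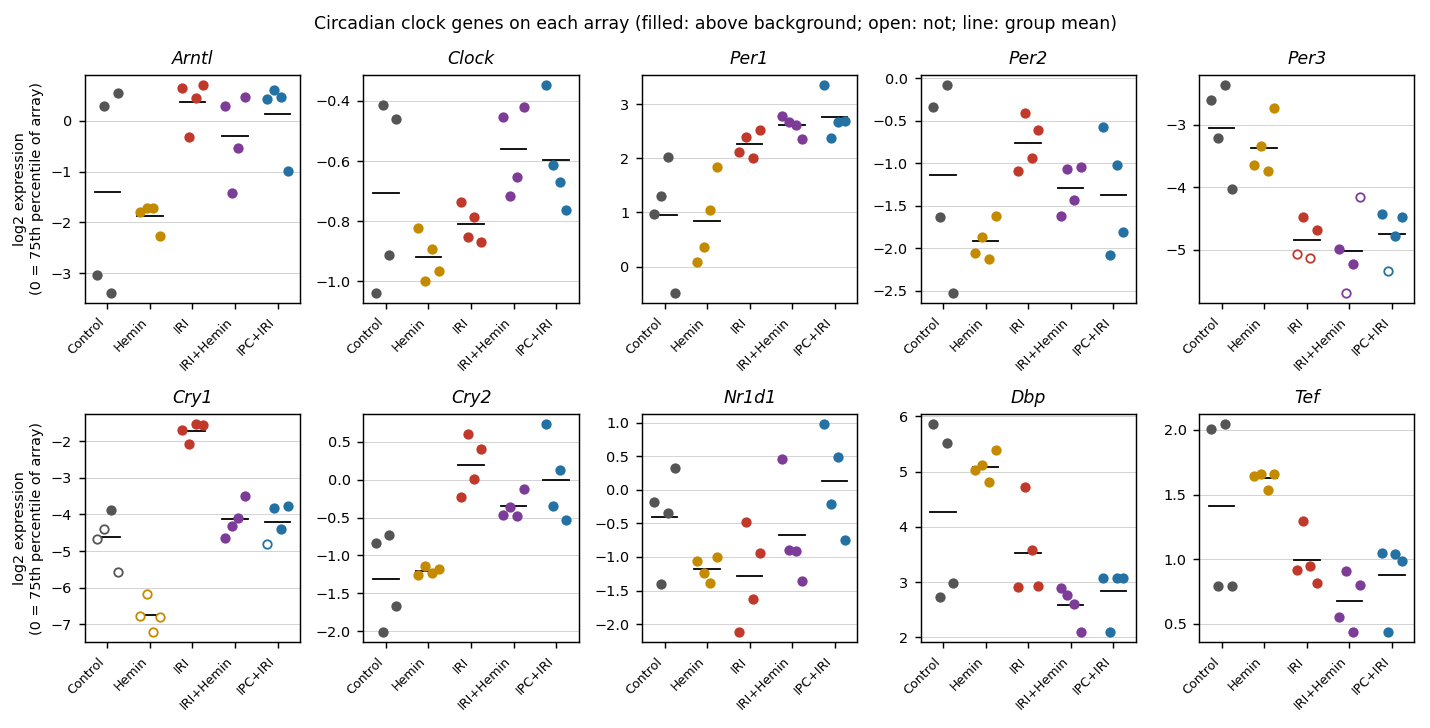
Log2 expression of each member on each array (vertical axis, 0 at the 75th percentile of the array) in the 5 groups (horizontal axis); points are arrays, open points are arrays not above background, and lines are group means. The Control arrays fall far apart for Arntl (-3.38 to 0.55) and Dbp (2.74 to 5.86), the Hemin arrays lie close together for both, and Cry1 is highest in IRI.

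Several clock genes varied most among the Control kidneys, though Nr1d1 varied as much in other groups (SD 0.79 in IRI+Hemin and 0.76 in IPC+IRI, against 0.73 in Control). Within Control, Arntl was low where Dbp and Tef were high. Arntl was at -3.03 and -3.38 in Control replicates 1 and 3 and at 0.28 and 0.55 in replicates 2 and 4, whereas Dbp was at 5.86 and 5.52 in replicates 1 and 3 and at 2.74 and 2.98 in replicates 2 and 4. The range of Arntl within this 1 group was 15.3-fold and that of Dbp 8.69-fold. Tef followed Dbp, at 2.01 and 2.04 in replicates 1 and 3 and at 0.79 in both others. The same 2 arrays, replicates 1 and 3, also had the higher values of Per2 (-0.34 and -0.08 against -1.64 and -2.52), Per3 (-2.60 and -2.36 against -3.22 and -4.03) and Cry2 (-0.83 and -0.73 against -2.01 and -1.67). Per1 and Nr1d1 did not divide the arrays in this way: Per1 was at 0.97, 1.30, 2.02 and -0.48 in replicates 1 to 4, and Nr1d1 at -0.19, -1.40, -0.34 and 0.33. Clock had a smaller range divided like that of Arntl, at -1.04 and -0.91 in replicates 1 and 3 and at -0.41 and -0.46 in replicates 2 and 4.

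Over the 14534 genes above background on all 20 arrays, the median SD among the Control arrays was 0.20. The SD of Arntl, 2.10, was the 3rd largest of these genes, and that of Dbp, 1.64, the 12th largest. The SD of 9 of the 10 members exceeded that of 95% of these genes, Clock being the exception with 0.31. The 9 include Cry1 and Per3, which were not above background on all arrays and are not among these genes; of the 8 members that are, 7 exceeded it. Of 20 further genes of the clock pathway, 3 had a Control SD above that of 95% of genes, of 9 output genes 3 did, and of 9 genes induced by signals that reach the clock, such as Fos and Sgk1, 6 did. Of those counted, 1 pathway gene, 2 output genes and all 6 of the induced genes were above background on all 4 Control arrays. The 4 genes described next were chosen after their values were seen. Ciart (listed on the array as Gm129), a repressor of the ARNTL and CLOCK pair, was at -0.48 and -0.33 in replicates 1 and 3 and at -5.80 and -5.29, not above background, in replicates 2 and 4. Nr1d2, the paralog of Nr1d1, was at 1.81 and 1.90 against 0.81 and 0.99, and Wee1, a cell cycle kinase under clock control, at -1.94 and -1.44 against -3.62 and -2.99. Npas2, the paralog of Clock, ran the other way, above background only in replicates 2 and 4 (-3.37 and -2.08). On the Hemin arrays the SD was 0.27 for Arntl, 0.24 for Dbp and 0.06 for Tef, but 0.79 for Per1, the 50th largest of the 14534 genes there. All groups share 1 estimate of the spread, so every difference given below, also between other groups, has the spread of the Control arrays in its error.

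**Figure D2:**
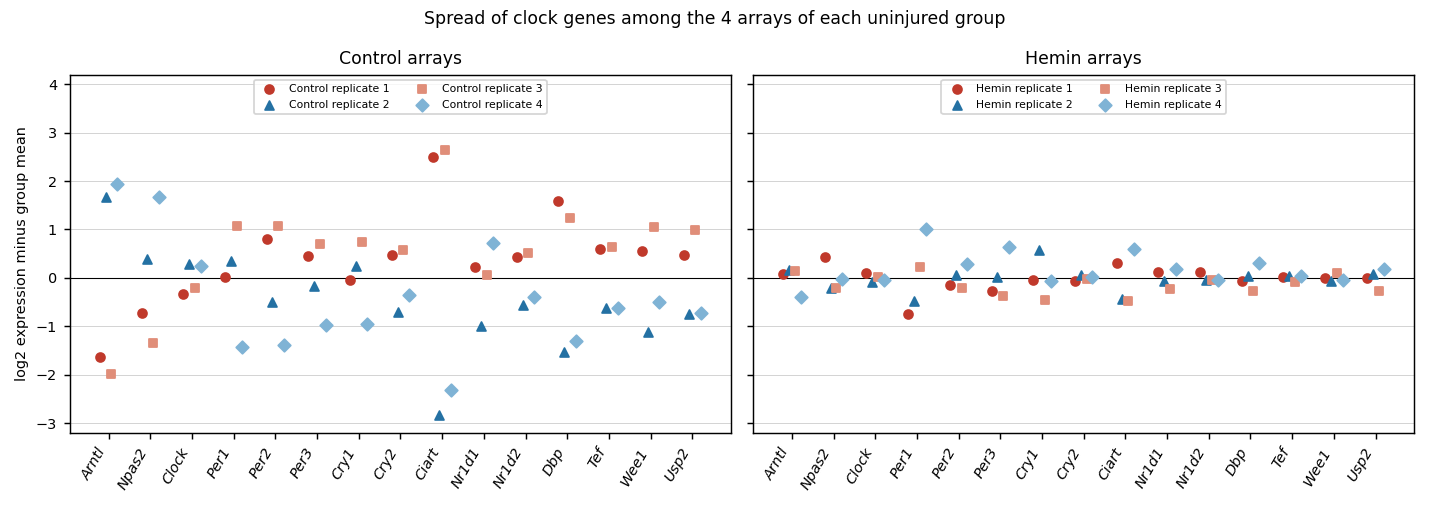
Log2 expression of 15 clock genes minus the mean of the group (vertical axis) on the 4 Control and the 4 Hemin arrays (symbols mark replicates). In Control, replicates 1 and 3 lie on one side and replicates 2 and 4 on the other for Arntl, Ciart, Dbp, Tef and several more, and in Hemin the same genes lie within about 1 log2 unit of the mean.

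Among the activators, Arntl passed as higher in 2 comparisons of ischemic with uninjured kidneys, and Clock varied little in its group means. Arntl (1 probe, mm9 chr7:120456978-120457037) was at 0.65, -0.32, 0.45 and 0.70 on the IRI arrays, at 0.30, -1.42, -0.53 and 0.46 on the IRI+Hemin arrays and at 0.44, 0.60, 0.47 and -0.98 on the IPC+IRI arrays. On the Hemin arrays it was at -1.79, -1.71, -1.72 and -2.28, below every array of the 3 ischemic groups, while the Control arrays spanned both levels. Arntl passed the test as higher in IRI than in Control (1.77, standard error 0.71, adjusted p = 0.047) and in IPC+IRI than in Hemin (2.00, standard error 0.71, adjusted p = 0.036). Both calls lay near the threshold in this model. With the compared arrays alone the second had a standard error of 0.34 and an adjusted p of 0.0029, and the first did not pass. In the model of all arrays, the first was lost when Control replicate 1 or 3 or IRI replicate 1, 3 or 4 was left out, with an adjusted p of up to 0.19, and the second when any 1 array except IPC+IRI replicate 4 was left out. With the replicate number as a block, neither passed. The group means of Clock (4 probes) ran only from -0.92 ± 0.08 in Hemin to -0.56 ± 0.15 in IRI+Hemin (SD, n = 4 arrays each), and as the mean of its probes Clock passed the test in none of the 7 comparisons of groups drawn in the plot of fold changes. In IRI+Hemin vs Hemin, which is not drawn, Clock passed as higher (0.36, adjusted p = 0.037, standard error 0.13), a call lost in 11 of 20 alternative fits. The probe at mm9 chr5:76641773-76641832 passed as lower in IPC+IRI than in Control (-0.34, adjusted p = 0.047 over all probes tested). The probe at chr5:76683410-76683469 was above background on all arrays of IPC+IRI and of IRI+Hemin and on none of the other 3 groups, so no size of difference is given for it.

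The repressors did not move as a block. Per1 and Cry2 were higher in every ischemic group than in Control. Cry1 was higher in IRI than in Control, IPC+IRI and IRI+Hemin, and Per2, as the mean of its probes, passed in no comparison. Per3 passed as lower in every ischemic group than in Control, but near the detection limit. Its calls in IRI and in IPC+IRI were lost with normexp background correction.

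Per1, known as an early responder to outside signals (1 probe, mm9 chr11:68922878-68922937), was at 2.11, 2.40, 2.01 and 2.52 in IRI, at 2.78, 2.68, 2.62 and 2.35 in IRI+Hemin and at 3.36, 2.38, 2.67 and 2.69 in IPC+IRI. In Hemin it was at 0.08, 0.36, 1.05 and 1.84, so that every ischemic array lay above every Hemin array. Compared with Control (0.95 ± 1.05, SD over 4 arrays, as in all means given here), Per1 was 3.53-fold higher in IPC+IRI (log2 fold change 1.82, standard error 0.41, adjusted p = 0.0012) and 3.16-fold higher in IRI+Hemin (1.66, standard error 0.41, adjusted p = 0.0025), in both cases with no overlap of arrays. It was 2.48-fold higher in IRI (1.31, standard error 0.41, adjusted p = 0.014). This last difference no longer passed without Control replicate 4, the lowest array (adjusted p = 0.056). In IPC+IRI vs Hemin, Per1 was 3.83-fold higher (1.94, standard error 0.41, adjusted p = 0.0016). SAM at zero false calls, the test of the study's methods, called none of these Per1 differences as run here on rescaled values. The study itself, with SAM on its own values, listed Per1 among the genes higher in IPC+IRI than in Control. The 3 ischemic groups overlapped each other, and Per1 differed past the threshold neither in IPC+IRI vs IRI (0.51, 95% confidence interval -0.36 to 1.38) nor in IRI+Hemin vs IRI (0.35, -0.52 to 1.22).

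Per3 is the Per paralog with the D-boxes shown above. Its probe (mm9 chr4:150379256-150379315) read -2.60, -3.22, -2.36 and -4.03 in Control and -3.64, -3.34, -3.75 and -2.72 in Hemin. In the ischemic groups it read -5.07, -4.47, -5.14 and -4.69 (IRI), -4.99, -5.69, -5.23 and -4.16 (IRI+Hemin) and -4.43, -5.34, -4.79 and -4.47 (IPC+IRI), all of them under all 8 arrays of uninjured kidneys. Compared with Control, Per3 was 3.46-fold lower in IRI (-1.79, standard error 0.36, adjusted p = 4.7e-04), 3.26-fold lower in IPC+IRI (-1.71, standard error 0.36, adjusted p = 6.1e-04) and 3.91-fold lower in IRI+Hemin (-1.97, standard error 0.36, adjusted p = 1.6e-04), and it was 2.63-fold lower in IPC+IRI than in Hemin (-1.39, standard error 0.36, adjusted p = 0.0056). Since 5 of the 12 ischemic arrays were not above background, these folds lean on values near the detection limit. In IRI vs Control and in IRI+Hemin vs Control, Per3 was tested through the Control arrays alone. With normexp background correction the log2 fold changes were -0.19 in IRI vs Control, -0.63 in IPC+IRI vs Control and -0.27 in IPC+IRI vs Hemin, none past the threshold, and -0.75 in IRI+Hemin vs Control, which still passed.

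Per2, the other main Per repressor (2 probes), had group means from -1.92 ± 0.23 in Hemin to -0.76 ± 0.31 in IRI. The Control arrays ran from -2.52 to -0.08, wider than all other groups put together, and as the mean of its probes Per2 passed in no comparison. Its probes did not run in parallel: the probe at mm9 chr1:93336538-93336597 was lower in IRI than in Control (-3.14 ± 0.28 against -2.22 ± 0.26) and the probe at chr1:93313046-93313105 read 0.08 ± 0.37 against -0.65 ± 1.50. The former probe passed as lower than Control in all 4 groups, by -0.92 in IRI (adjusted p = 0.044 over all probes tested), -1.25 in IPC+IRI (0.0070), -1.19 in IRI+Hemin (0.0095) and -1.21 in Hemin (0.015).

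Cry1 set IRI apart from the protected ischemic groups. It was at -1.70, -2.06, -1.53 and -1.57 on the IRI arrays, at -4.64, -4.33, -4.09 and -3.50 on the IRI+Hemin arrays and at -4.82, -3.82, -4.40 and -3.78 on the IPC+IRI arrays. The Control arrays read -4.67, -4.39, -3.88 and -5.57, overlapping with both of these groups, and the Hemin arrays -6.78, -6.17, -7.21 and -6.82, none above background. Every IRI array thus lay above all 16 other arrays. Cry1 passed as higher in IRI than in Control (adjusted p = 1.9e-06), but 3 of 4 Control arrays were not above background and Cry1 was tested there through the IRI arrays alone. The fitted log2 difference of 2.91 (standard error 0.33) thus leans on values near the detection limit, fell to 0.89 with normexp background correction, and was not tested under a strict filter. Cry1 was 5.61-fold lower in IPC+IRI than in IRI (-2.49, standard error 0.33, adjusted p = 2.6e-05) and 5.35-fold lower in IRI+Hemin than in IRI (-2.42, standard error 0.33, adjusted p = 3.0e-05). As the mean of its probes, Cry1 did not differ from Control past the threshold in IPC+IRI (0.42, 95% confidence interval -0.27 to 1.11) or in IRI+Hemin (0.49, -0.20 to 1.18). The probe at mm9 chr10:84606495-84606554 passed as higher in IRI+Hemin than in Control (adjusted p = 0.039 over all probes tested). It was tested there through the IRI+Hemin arrays alone, so no size is given. Both probes, at mm9 chr10:84606495-84606554 and chr10:84594731-84594790, were above background on all IRI arrays and on 1 of 4 Control arrays, and both passed as lower with preconditioning (-2.94 and -2.13, on 3 and 2 of 4 arrays above background) and with Hemin (-2.21 and -2.70, on 4 and 3 of 4). Against Hemin, whose level is only a bound, Cry1 was at least 2.77-fold higher in IPC+IRI (adjusted p = 1.8e-05). The bound sets the Hemin arrays at the lowest signal of a probe above background on each array, or at the measured value where that was higher. Cry1 was not tested in Hemin vs Control, since too few arrays of either group were above background. The 4 Hemin values lay below the lowest Control value, but with 3 of 4 Control and all 4 Hemin arrays not above background no fold is given. With normexp background correction the log2 fold changes were -1.07 in IPC+IRI vs IRI and -1.09 in IRI+Hemin vs IRI, both still past the threshold like that in IRI vs Control, while the one in IPC+IRI vs Hemin, 0.41, was not. That last call was also lost with the deposited values, with a strict filter and without IPC+IRI replicate 2, 3 or 4.

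Cry2, the paralog of Cry1, was higher after ischemia with or without protection. Its arrays were at -0.22, 0.61, 0.01 and 0.40 in IRI, at -0.46, -0.36, -0.48 and -0.12 in IRI+Hemin and at 0.73, -0.35, 0.12 and -0.54 in IPC+IRI. In Hemin they were at -1.26, -1.14, -1.23 and -1.18, and in Control no array exceeded -0.73, so no ischemic array overlapped with an uninjured one. Cry2 was 2.84-fold higher in IRI (1.51, standard error 0.28, adjusted p = 2.7e-04), 2.47-fold higher in IPC+IRI (1.30, standard error 0.28, adjusted p = 8.0e-04) and 1.94-fold higher in IRI+Hemin (0.96, standard error 0.28, adjusted p = 0.0076) than in Control, and 2.29-fold higher in IPC+IRI than in Hemin (1.20, standard error 0.28, adjusted p = 0.0031). These 4 calls held in each of 20 alternative limma fits. SAM called none of them, and the one in IRI+Hemin vs Control is under a 2-fold minimum. In IRI vs Control 1 of its 2 probes was higher by 1.55, and the other, above background on 1 array of each group, by 0.44.

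**Figure D3:**
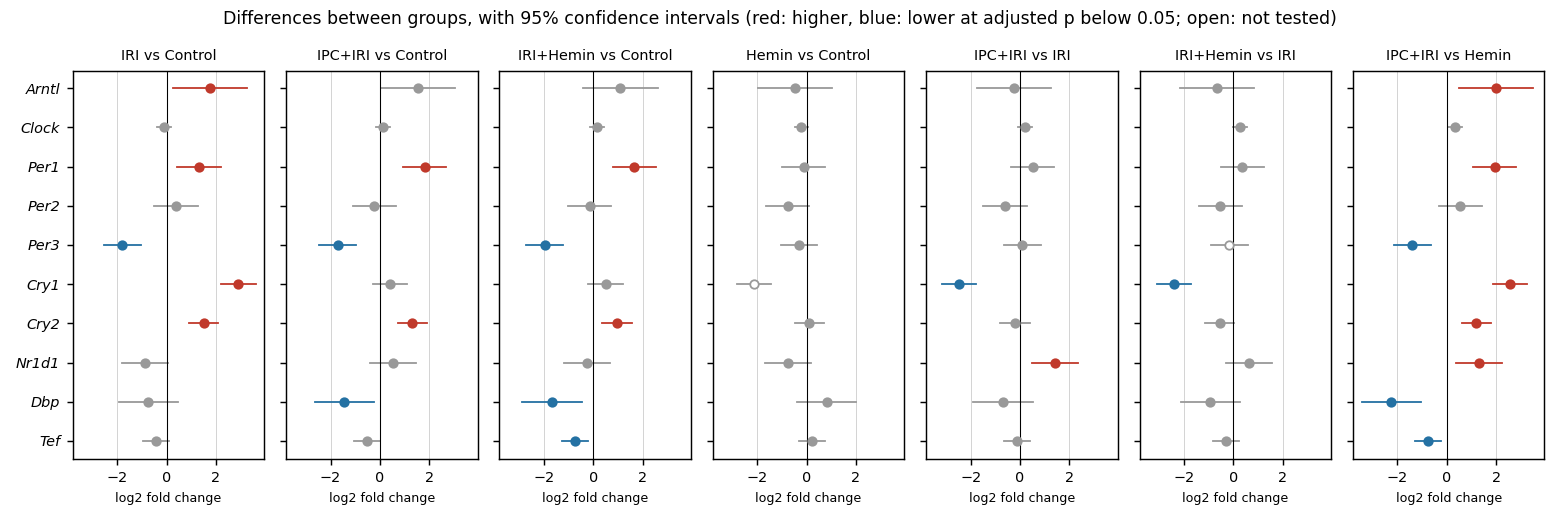
Log2 fold change of each member with its 95% confidence interval (horizontal axis) in 7 comparisons; red and blue mark members that were higher or lower at an adjusted p below 0.05, and open points were not tested. Per1 and Cry2 lie to the right and Per3 to the left in all 3 comparisons of ischemic groups with Control, Cry1 lies at 2.91 in IRI vs Control and at -2.49 and -2.42 in the comparisons with IRI, and no point is coloured in Hemin vs Control; Cry1 in IPC+IRI vs Hemin is drawn at its measured 2.54, although no Hemin array was above background.

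In the second loop, Nr1d1, the repressor of Arntl, did not mirror Arntl over the groups. Its arrays ranged from -2.11 to -0.47 in IRI, from -1.36 to 0.46 in IRI+Hemin, from -0.74 to 0.97 in IPC+IRI, from -1.40 to 0.33 in Control and -1.17 ± 0.18 on average in Hemin. Nr1d1 was 2.67-fold higher in IPC+IRI than in IRI (1.42, standard error 0.44, adjusted p = 0.015) and 2.46-fold higher than in Hemin (1.30, standard error 0.44, adjusted p = 0.029). As the mean of its probes, it passed no test against Control. Of its 3 probes, the brightest, at mm9 chr11:98630526-98631028, was the only one to pass in these 2 comparisons (1.68 and 1.53). The other probes, at chr11:98633332-98633391 and chr11:98636435-98636494, were lower in IRI than in Control (-2.88 ± 0.26 against -1.61 ± 0.39, and -2.73 ± 0.22 against -1.10 ± 0.20) and also passed as lower than Control in IPC+IRI (-0.69 and -1.70), in IRI+Hemin (-1.11 and -2.39) and in Hemin (-0.89 and -1.75). With the mean of log2 values over the probes, which gives the dim probes equal weight, Nr1d1 passed in neither of the 2 comparisons. The first call was also lost without IRI replicate 1 or IPC+IRI replicate 1 (adjusted p up to 0.058), and the second without IPC+IRI replicate 1 or 3 or Hemin replicate 2 or 3 (up to 0.093).

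The output factors Dbp and Tef ran alike over the 20 arrays (r = 0.948). Dbp (1 probe, mm9 chr7:52965265-52965324) was at 5.02, 5.12, 4.81 and 5.38 in Hemin. It was at 2.90, 4.71, 3.58 and 2.92 in IRI, at 2.89, 2.76, 2.60 and 2.10 in IRI+Hemin and at 3.08, 2.10, 3.08 and 3.07 in IPC+IRI. All 12 ischemic arrays lay below all 4 Hemin arrays, and IRI replicate 2, at 4.71, stood nearest to them. Dbp was 4.76-fold lower in IPC+IRI than in Hemin (-2.25, standard error 0.57, adjusted p = 0.0054), a call that held in each of 20 alternative limma fits and with SAM. Compared with Control, whose arrays spanned 2.74 to 5.86, Dbp passed as lower in IRI+Hemin (-1.68, standard error 0.57, adjusted p = 0.018) and in IPC+IRI (-1.44, standard error 0.57, adjusted p = 0.040) but not in IRI (-0.74, 95% confidence interval -1.95 to 0.46). The first 2 calls were lost without Control replicate 1 or 3, and the second also without any 1 of the 4 IPC+IRI arrays. Tef (4 probes) was at 1.54 to 1.66 in Hemin and at 0.44 to 1.29 over the 3 ischemic groups. It was lower in IPC+IRI than in Hemin (-0.75, standard error 0.25, adjusted p = 0.026) and in IRI+Hemin than in Control (-0.74, standard error 0.25, adjusted p = 0.018), and each call was lost without some single arrays, among them Control replicate 1 or 3 for the latter and Hemin replicate 1, 2 or 4 for the former. The level of Tef is that of its brightest probe. The other 3 probes did not all follow it. The probe mapped to the transcript AK045575, at chr15:81646554-81646613, was at -4.97 ± 0.19 in IRI with 1 of 4 arrays above background and at -1.91 to -2.36 in the means of the other 4 groups. Its differences from IRI were tested through the other groups alone, so no size is given for them or for its interaction. The probes at chr15:81654218-81654277 and chr15:81651816-81653921 passed as lower in IPC+IRI than in Control (-1.16, adjusted p = 9.0e-04 over all probes tested, and -0.84, adjusted p = 0.023) and than in IRI (-1.12 and -1.09), and the latter also in IRI+Hemin than in IRI (-0.82), whereas Tef as the mean of its probes passed in none of these comparisons.

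**Figure D4:**
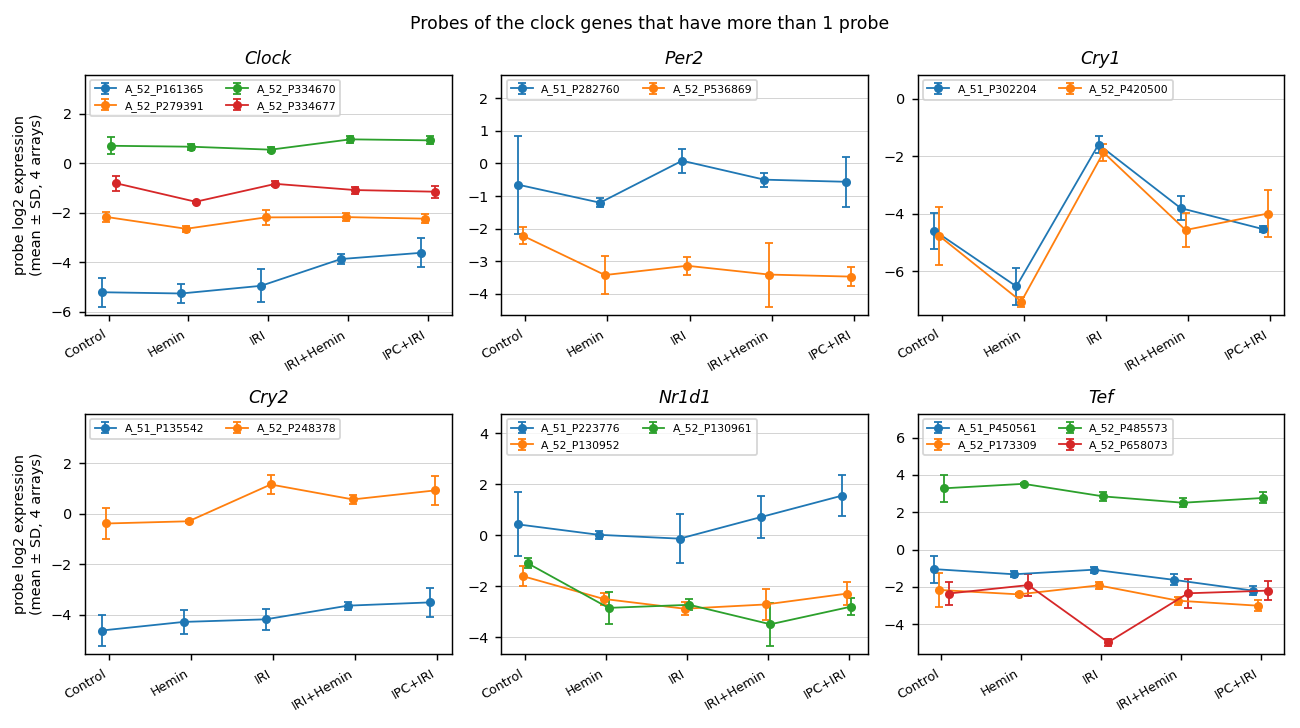
Mean log2 expression ± SD over 4 arrays (vertical axis) of each probe of the 6 members with more than 1 probe, by group (horizontal axis); lines join the groups of a probe. The 2 Cry1 probes run together, whereas the probes of Nr1d1 and Per2 diverge and 1 Tef probe dips to -4.97 in IRI.

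In IRI vs Control, the comparison that asks what ischemia and reperfusion do to the kidney, 5 of 10 members passed the test at an adjusted p below 0.05: Arntl, Per1, Cry1 and Cry2 were higher and Per3 was lower. Of all 17719 genes tested, 50.6% passed, 17% as higher and 33.7% as lower, so the share of members called was near the background. Cry1 was tested through the IRI arrays and Per3 through the Control arrays alone, the group in which each is high, so these 2 could hardly do other than differ and the count supports nothing. Their median log2 fold change was 0.14, against -0.17 for all genes. In IPC+IRI vs Control, Per1 and Cry2 were higher and Per3 and Dbp lower (4 of 10; 55.8% of 18352 genes were called, 23.1% higher and 32.6% lower), and in IRI+Hemin vs Control the same 4 members and Tef, which was lower (5 of 10; 57.5% of 18489 genes, 24.3% higher and 33.1% lower). In the latter comparison Per3 was again tested through the Control arrays alone. The median of the members was 0.27 in the former and -0.0020 in the latter, against -0.09 and -0.10 for all genes. These 3 comparisons share the Control arrays.

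Compared with IRI alone, few members passed with preconditioning or Hemin as means of their probes. In IPC+IRI vs IRI, Cry1 was lower and Nr1d1 higher (2 of 10; 43.7% of 17668 genes were called, 26% higher and 17.7% lower). In IRI+Hemin vs IRI, Cry1 alone passed (1 of 9 tested, lower; 44% of 17835 genes, 26.1% higher and 18% lower). The medians of the tested members were -0.16 and -0.53, against 0.09 and 0.08 for all genes. Both comparisons share the IRI arrays and cross scan days. Among single probes, the Clock probe at chr5:76641377-76641436 passed as higher in IPC+IRI vs IRI (0.38) and in IRI+Hemin vs IRI (0.42), the one at chr5:76683410-76683469 was tested there through the protected groups alone, and the Tef probes are given above. In Hemin vs Control, 0 of 9 tested members passed with limma, 0 at an unadjusted p below 0.05 and 0 with SAM, while 35.9% of 18579 genes were called, 18.4% as higher and 17.5% as lower. The intervals were wide, from -1.98 to 1.02 for Arntl and from -0.39 to 2.01 for Dbp, so that differences of 2-fold or more in either gene remain within them. Single probes did pass as lower in Hemin: those of Nr1d1 and Per2 given above and 2 of Clock, at chr5:76664578-76664637 (-0.48, adjusted p = 0.018 over all probes tested) and chr5:76641773-76641832 (-0.75, adjusted p = 8.0e-04). Cry1 was not tested here, as described above.

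IPC+IRI vs Hemin compared an ischemic with an uninjured group that were scanned on the same day. Here 8 of 10 members passed, against 35.8% of 18544 genes, 13.1% of them higher and 22.7% lower. Arntl, Per1, Cry1, Cry2 and Nr1d1 were higher and Per3, Dbp and Tef lower in IPC+IRI, and Clock (0.32, adjusted p = 0.069) and Per2 (0.55, adjusted p = 0.32) did not pass as means of their probes. The Clock probes at chr5:76664578-76664637 and chr5:76641773-76641832 passed as higher (0.41 each, adjusted p = 0.040 and 0.033 over all probes tested). The Clock probe at chr5:76641377-76641436 did not pass, and the one at chr5:76683410-76683469 was tested through IPC+IRI alone. The 8 include Cry1, which was tested through the IPC+IRI arrays alone and whose call was lost under the settings given above. The median of the members was 0.87, against -0.15 for all genes. Preconditioning, Hemin, surgery and ischemia all differ between these groups and cannot be told apart. IRI+Hemin vs Hemin, the component of the interaction in which both groups had Hemin, crossed scan days. Here 7 of 10 members passed, against 44.2% of 18634 genes, 16.4% of them higher and 27.8% lower. Per1 (1.78, adjusted p = 0.0024), Cry2 (0.85, adjusted p = 0.021), Clock and Cry1 were higher and Per3 (-1.65, adjusted p = 0.0013), Dbp (-2.49, adjusted p = 0.0021) and Tef (-0.95, adjusted p = 0.0052) lower. Arntl did not pass (1.58, 95% confidence interval 0.08 to 3.08, adjusted p = 0.081). Cry1, tested through IRI+Hemin alone, was at least 2.90-fold higher by the bound described above. Its call was lost with normexp background correction (0.39), with the deposited values and with a strict filter. Per3 was tested through Hemin alone, and its call was lost with normexp (-0.39) and with a strict filter. The calls of Per1 and Dbp held in each of 20 alternative limma fits. Both comparisons share the Hemin arrays. When single arrays were left out, 5 to 7 members passed in the former and 6 to 7 in the latter comparison. The interaction, which asks whether the difference made by ischemia depends on Hemin, was passed by 0 of 10 members with limma, by 3 at an unadjusted p below 0.05 and by 7.77% of 19064 genes. The members with the smallest p were Clock (0.46, adjusted p = 0.15), Nr1d1 (1.38, adjusted p = 0.20) and Dbp (-1.75, adjusted p = 0.21).

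Of 20 further genes of the clock pathway, 17 or 18 could be tested in each comparison. In IRI vs Control, 8 of 18 were higher and 1 lower, against 50.6% of all genes called, 17% as higher and 33.7% as lower. The median log2 fold change of these 18 was 0.35, against -0.17 for all genes. Nfil3, the D-box repressor that opposes Dbp and Tef, changed most: it was at 2.06 to 3.07 in IRI and at -0.97 to 0.05 in Control (2.95, adjusted p = 3.3e-06), and it was higher in IPC+IRI (2.86, adjusted p = 4.4e-06) and in IRI+Hemin (2.12, adjusted p = 7.1e-05) as well. Bhlhe40 (DEC1), an E-box repressor, was higher in IRI (1.85, adjusted p = 4.1e-06), as was Rora, an activator at ROR elements (1.26, adjusted p = 3.2e-06). Both remained above Control in the protected groups, Bhlhe40 by 0.74 in IPC+IRI and 0.67 in IRI+Hemin and Rora by 1.02 and 1.41. Counts in the other comparisons were 7 higher and 2 lower in IPC+IRI vs Control, 5 and 4 in IRI+Hemin vs Control, 2 and 4 in IPC+IRI vs IRI, 3 and 4 in IRI+Hemin vs IRI, 3 and 4 in Hemin vs Control and 5 and 2 in IPC+IRI vs Hemin. Of all genes, 55.8%, 57.5%, 43.7%, 44%, 35.9% and 35.8% were called in the same order, so that the totals were near the background or below it. Called as higher were 23.1%, 24.3%, 26%, 26.1%, 18.4% and 13.1% of all genes in the same order. Called as lower were 32.6%, 33.1%, 17.7%, 18%, 17.5% and 22.7%.

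The study placed Csnk1d, Cry1, Rora and Bhlhe40 under circadian rhythm among genes higher in IRI than in Control. It placed Csnk1d, Per1 and Csnk1e there among genes higher in IPC+IRI than in Control. These lists come from the same arrays, so the counts that include these genes are no independent evidence. The study also listed Cry1 as lower in IRI+Hemin than in IRI, and Tef among the genes most reduced in IRI vs Control. Here Tef, as the mean of its probes, did not pass in IRI vs Control (-0.42, adjusted p = 0.18). Csnk1d and Csnk1e are kinases that phosphorylate PER proteins. Csnk1e was at -0.64 ± 0.30 in Control, 0.02 ± 0.38 in IRI, 0.39 ± 0.25 in Hemin, 1.60 ± 0.21 in IPC+IRI and 1.69 ± 0.15 in IRI+Hemin. It was the pathway gene with the largest difference in IPC+IRI vs IRI (1.58, adjusted p = 1.1e-05) and in IRI+Hemin vs IRI (1.67, adjusted p = 5.3e-06). The result depended on how its probes were joined, since the mean of log2 over probes gave -0.59 (adjusted p = 0.022) and -0.52 (adjusted p = 0.040) in these 2 comparisons, past the threshold in the opposite direction. Csnk1d rose by less, by 0.38 in IPC+IRI vs IRI (adjusted p = 0.0079) and by 0.34 in IRI vs Control (adjusted p = 0.011). The first call held in 18 of 20 alternative fits, and was lost with the mean of log2 over probes and the deposited values. The second held in 15 of 20, and was lost with normexp, the brightest probe and the deposited values, among others.

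Genes induced by signals that are known to reach the clock were measured as well. All 5 immediate early and CREB target genes (Fos, Egr1, Nr4a1, Sik1, Crem) were higher in IRI, in IPC+IRI and in IRI+Hemin than in Control, and 0 of 5 passed in Hemin vs Control with limma (1 at an unadjusted p below 0.05), where 35.9% of all genes were called; in the 3 ischemic comparisons 17%, 23.1% and 24.3% of all genes were called as higher. Fos, a subunit of AP-1, had the largest difference in IRI vs Control (4.01, adjusted p = 1.0e-04) and Nr4a1, an orphan receptor, the largest in IPC+IRI vs Control (2.97, adjusted p = 4.0e-06). Of 4 glucocorticoid-induced genes, all were higher in IRI than in Control, and 3 were in IPC+IRI and in IRI+Hemin. Sgk1, a kinase of sodium transport, had the largest difference in IRI (2.18, adjusted p = 2.8e-04), but this call was lost with the mean of log2 over probes and in the deposited log2 values, which hold blanks and gave -2.18. Klf9, a glucocorticoid-induced factor that is itself rhythmic, was at 2.86 or more in IRI and at 2.46 or less in Control (0.88, adjusted p = 1.9e-05). The part of these signals in the levels of Per1 was not tested.

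Among 9 output genes, 8 or 9 could be tested. In IRI vs Control, 4 were higher and 2 lower (50.6% of all genes were called). Avpr2, the vasopressin receptor of the collecting duct, was lower in IRI (-1.68, adjusted p = 8.7e-05) and Wee1 higher (1.64, adjusted p = 4.8e-04). In IPC+IRI vs IRI, 2 were higher and 5 lower (43.7% of all genes), the largest difference being that of Wee1 (-1.30, adjusted p = 0.0040). In IRI+Hemin vs IRI, 2 were higher and 4 lower (44% of all genes). Here Alas1, the first enzyme of heme synthesis, was higher (1.77, adjusted p = 1.3e-05), and it was the only gene of these lists to pass in the interaction (2.00, adjusted p = 7.4e-04). Nr1i3, the nuclear receptor CAR, passed as higher as well, but since it was above background on 4 of 4 IRI+Hemin and 0 of 4 IRI arrays, its level in IRI is only a bound and no fold is given. Wee1 was lowest in Hemin, at -4.31 to -4.14, and lower there than in Control (-1.75, adjusted p = 7.4e-04).

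**Figure D5:**
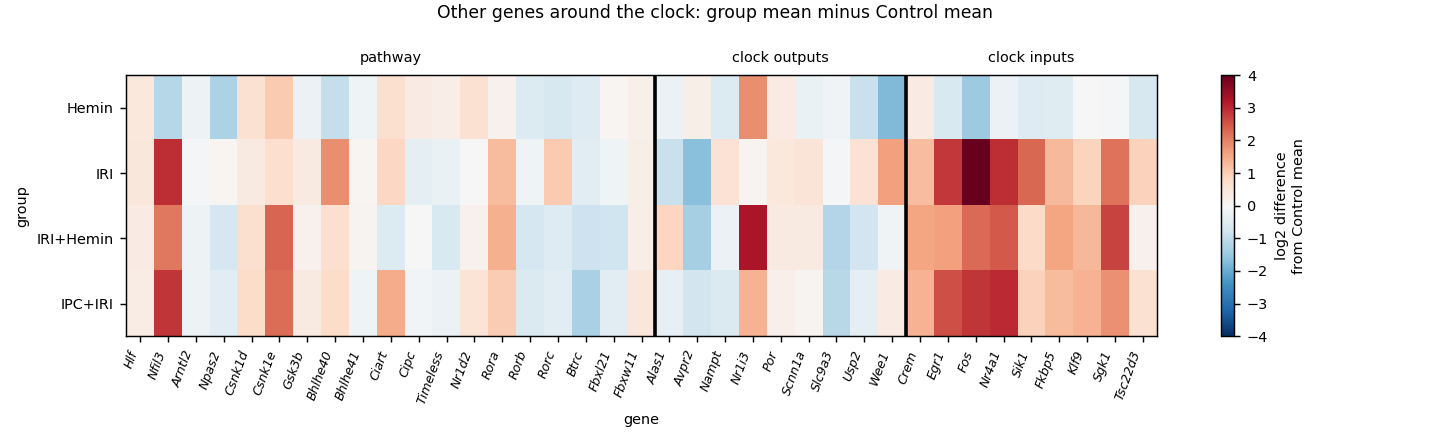
Mean log2 expression of each group minus the Control mean (colour, in log2 units) for pathway, output and input genes of the clock (horizontal axis; 1 pathway gene is not drawn) in the 4 other groups (vertical axis). Nfil3, Fos and Nr4a1 are red in all 3 ischemic groups, at 2.95, 4.01 and 2.94 in IRI, and Wee1 is red in IRI and blue in Hemin.

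Over the 20 arrays, the genes whose log2 expression ran most like that of the 4 members with the widest range of group means were found by Pearson correlation among the 14534 genes above background on all arrays. These are descriptions over arrays that share slides and treatments within a group. Since the genes were chosen by correlation over these same arrays, a likeness of their group means follows from the choice. For Cry1 they were Mlxip (r = 0.940), Rap1b (0.940) and Txnip (0.934). Since Cry1 was not above background on 8 of the 20 arrays, among them all 4 Hemin arrays, both its range of group means and these correlations rest partly on values near the detection limit. Like Cry1, each had its highest group mean in IRI (0.34, 2.23 and 4.95) and its lowest in Hemin (-1.08, 0.96 and 2.88). For Dbp they were Tef (0.948), Slc5a6 (0.890) and the sequence listed as NAP065150-1 (0.885). For Per3, not above background on 5 arrays, they were Lenep (0.916), Hmcn2 (0.903) and Esrra (0.899), all 3 with lower group means in the ischemic groups. For Arntl they were AK039674 (0.834), Slc16a1 (0.803) and CF584798 (0.783), less alike than for the others of these 4 members. Arntl itself correlated with Dbp at -0.837 and with Tef at -0.850.

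Some markers of tissue state differed between the groups as well. The summed level of 3 tubular injury markers, in multiples of the array's 75th percentile, was 1.49 to 1.91 in Control and 0.74 to 1.44 in Hemin, and 48.8 to 59.3 in IRI, 16.2 to 70.8 in IRI+Hemin and 10.8 to 52.8 in IPC+IRI. Compared with Control, 2 of 3 were higher in IRI, 2 in IRI+Hemin and 3 in IPC+IRI, where 17%, 24.3% and 23.1% of all genes were called as higher. The sum of 5 proximal tubule markers was 375 to 416 in Control and 338 to 355 in Hemin, against 280 to 395, 230 to 344 and 253 to 301 in the ischemic groups in the same order, so that IRI overlapped Control. In IRI vs Control, Lrp2 alone of the 5 passed as lower (-0.95, adjusted p = 9.0e-07), and 3 passed in IRI+Hemin and 2 in IPC+IRI, where 33.7%, 33.1% and 32.6% of all genes were called as lower in the same order. The sum of 6 leukocyte markers was 0.68 to 0.77 in Control and 0.63 to 0.92 in Hemin, and 1.62 to 2.85, 1.19 to 2.94 and 1.16 to 4.05 in the ischemic groups. Of 5 leukocyte markers tested in IRI vs Control, 2 passed, Cd68 (2.23) and S100a8 (4.05), whereas Ptprc (0.0053), Adgre1 (-0.86) and Cd3e (-0.51) did not. In IRI+Hemin and in IPC+IRI, 3 of 6 were higher than in Control. Of 3 collecting duct markers, 1 was higher and 1 lower in IRI, and 2 were higher in IRI+Hemin and in IPC+IRI. Among them was Aqp2, the vasopressin-regulated water channel, at 4.30 in IRI against 3.07 in Control (adjusted p = 0.0027), while Avpr2 was lower there. Of 4 endothelial markers, Cdh5 was higher (1.39, adjusted p = 4.5e-04) and Kdr lower (-0.44, adjusted p = 0.041) in IRI, and Emcn was higher in IRI+Hemin. Of 4 podocyte markers, 1 was lower in IRI and 2 were in IRI+Hemin and in IPC+IRI, and their summed level was 2.01 to 2.55 in IPC+IRI against 2.71 to 4.66 in Control. Of 5 markers of the thick limb and distal tubule, 0 passed in IRI with limma (1 at an unadjusted p below 0.05), 1 was higher in IPC+IRI, and Pvalb (-1.96) and Calb1 (-1.06) were lower in IRI+Hemin. The shares of all genes called as higher or lower that are given above apply to each of these marker counts. The part of injury and of cell makeup in the levels of the clock genes was not tested.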

How the data were processed

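Kidney RNA of 20 mice was measured on 1-colour Agilent arrays. The intensity values were deposited by the authors as scanner output of Agilent Feature Extraction 9.5.3.1, in which the processed signal is already background-subtracted. The authors also deposited a table of log2 values, which equals the log2 of that signal with blanks. Here, flagged and control spots were left out, spots of the same probe were averaged, signals were expressed relative to the 75th percentile of their array, and probes that share a gene name were joined by their linear mean before log2 was taken. All 20 arrays entered 1 limma model (3.58.1, R 4.3.3) with 5 group means, which leaves 15 residual degrees of freedom. The Benjamini-Hochberg adjustment ran over all genes tested in a comparison, at a threshold of 0.05. A gene was tested if at least 3 of 4 arrays of either group were above background and at most 1 value was missing. The scripts were tested on simulated data.

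Groups and replicate numbers came from the sample labels. Each array held RNA of a single kidney as far as the sources state, and p-values measure the spread between these samples. With 4 arrays against 4, the smallest two-sided exact permutation p is 0.0286. The number of arrays limits the precision. The text names all 10 members, the 3 genes most like each of the 4 members with the widest range of group means, and from each list the genes with the largest called differences and those the study placed under circadian rhythm. Ciart, Npas2, Nr1d2 and Klf9, and the Control values of Wee1, were chosen after their values were seen. Zbtb16, on the list of glucocorticoid-induced genes, matched no gene name. The values of 1 gene of the pathway list are not reported here, although the counts include it. The members and lists were chosen with earlier results of these data known. Positions of probes follow the annotation in the scanner output (mm9), and promoter windows come from RefSeq (GRCm38.p6). Alternatives changed the background correction, normalization, treatment of probes, filter, model, test and set of arrays.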

Additional observations from a re-analysis of the deposited data

Results flagged for a closer look

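In 5 of 50 groups of 4 arrays (10 members, 5 groups), 1 array stood apart from the other 3 by Dixon's criterion, which chance meets in about 1 in 20 groups. Arntl was at -0.98 in IPC+IRI replicate 4, below the other arrays of its group, and at -2.28 in Hemin replicate 4, again the lowest. In IPC+IRI replicate 2, Dbp was at 2.10 and Tef at 0.44, both the lowest of their group. Tef was at 1.54 in Hemin replicate 3, where the whole range of the group was small. The Control arrays, in which Arntl and Dbp had their widest spread, met this criterion for no member. It looks for 1 array apart from the other 3, so it cannot flag a split of 2 arrays against 2, such as theirs.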

How the results depend on the processing

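Of 32 member differences past the threshold, 11 held in each of 20 alternative limma fits (SAM and the 2-fold minimum, given below, are apart from these): Cry2 in IRI, IPC+IRI and IRI+Hemin vs Control and in IPC+IRI vs Hemin, Per1 in the last 3 of these, Per1 and Dbp in IRI+Hemin vs Hemin, Dbp in IPC+IRI vs Hemin and Cry1 in IRI+Hemin vs IRI. No member difference past the threshold changed direction. With each array left out in turn, members called ranged from 4 to 7 in IRI vs Control, 3 to 6 in IPC+IRI vs Control, 3 to 6 in IRI+Hemin vs Control, 0 to 1 in Hemin vs Control, 1 to 2 in IPC+IRI vs IRI, 1 to 1 in IRI+Hemin vs IRI, 5 to 7 in IPC+IRI vs Hemin, 6 to 7 in IRI+Hemin vs Hemin and 0 to 0 in the interaction. SAM called 2 in IRI vs Control (5 with limma), 0 in IPC+IRI vs Control (4), 0 in IRI+Hemin vs Control (5), 3 in IPC+IRI vs Hemin (8) and 1 in IPC+IRI vs IRI (2). Normexp gave 3 in IRI vs Control and 2 in IPC+IRI vs Control. A strict filter, which leaves Per3 tested only in Hemin vs Control and Cry1 only in IRI+Hemin vs IRI, gave 3 in IRI vs Control and 1 in IPC+IRI vs IRI. The mean of log2 over probes gave 7 in IRI vs Control (4 higher and 3 lower, against 4 and 1), 1 in IPC+IRI vs IRI and 1 in Hemin vs Control, where no filter and no normalization also gave 1. Quantile normalization gave 6 in IPC+IRI vs Control and 6 in IRI+Hemin vs Control, and the compared arrays alone 9 in IPC+IRI vs Hemin. In IRI+Hemin vs Hemin (7), for which the alternatives were chosen after seeing the data, SAM, normexp and a 2-fold minimum each gave 4, the compared arrays alone gave 9, and no normalization gave 2 higher and 3 lower (against 4 and 3). The deposited log2 values gave 5 in IPC+IRI vs Hemin. IRI+Hemin vs Control had 3 with a 2-fold minimum and 3 with the compared arrays alone. IRI+Hemin vs IRI had 2 with the brightest probe, the deposited values, no normalization or the compared arrays alone. Without normalization the median of all genes moved by up to 0.57 (Hemin vs Control), and the members called higher and lower became 4 and 1 in IPC+IRI vs Control and in IRI+Hemin vs Control, 3 and 3 in IPC+IRI vs Hemin and 1 and 1 in IRI+Hemin vs IRI. Normexp gave 2 and 0 in IPC+IRI vs Control and 3 and 0 in IRI vs Control. The cause of these changes was not tested.

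In IRI vs Control the deviations of all 4 same-numbered pairs correlated positively (0.050 to 0.149), 3 of 4 over 0.1, and in no comparison were all pairs over 0.1, so the numbers were not taken to pair the arrays. With a replicate block, the members called were 4 in IRI vs Control, 4 in IPC+IRI vs Control, 5 in IRI+Hemin vs Control, 0 in Hemin vs Control, 2 in IPC+IRI vs IRI, 1 in IRI+Hemin vs IRI, 7 in IPC+IRI vs Hemin, 6 in IRI+Hemin vs Hemin and 0 in the interaction. The block ended the calls of Arntl in IRI vs Control and in IPC+IRI vs Hemin and of Clock in IRI+Hemin vs Hemin. A random block for the slide could not be fitted, since each slide, as read from the scan time, held 1 group.

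Some differences of the listed genes changed direction, for which the cause was not tested. With the mean of log2 over probes they were -0.014 (Cipc, listed as 2310044G17Rik) and -0.52 (Csnk1e) in Hemin vs Control, -0.59 in IPC+IRI vs IRI and -0.52 in IRI+Hemin vs IRI (both Csnk1e, adjusted p = 0.022 and 0.040, past the threshold in the opposite direction), -0.095 (Fbxw11) and -0.16 (Sgk1) in IPC+IRI vs Control and -0.75 (Scnn1a, likewise past it, adjusted p = 0.0014) in IRI+Hemin vs Control. With the deposited values they were -0.23 (Csnk1d, Hemin vs Control), -0.25 (Csnk1e, IRI vs Control), -0.25 (Sgk1, IPC+IRI vs Control) and -2.18 (Sgk1, IRI vs Control). Without normalization Btrc was at 0.057 and Nampt at 0.028, and with normexp Nr1i3 was at -0.16, all in Hemin vs Control.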
